A study of Bos taurus with 8 samples.

Results

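Myosin is the motor protein of muscle, built of a pair of heavy chains, which split ATP and pull on actin, and of light chains that clasp the neck of each heavy chain. Each heavy chain carries an alkali (essential) and a regulatory light chain, and both kinds come in developmental, fast, slow, and widely expressed forms encoded by separate genes. Muscle precursor cells make little sarcomeric myosin while they divide, and embryonic forms are among the earliest to be made when they begin to differentiate. In cultures of muscle cells from bulls, 10 genes of this family were followed: the heavy chains MYH3 (embryonic), MYH2 (fast), and MYH7 (slow), the alkali light chains MYL4 (embryonic), MYL1 (fast), MYL3 (slow), MYL6, and MYL6B (both widely expressed), and the regulatory light chains MYL2 (slow) and MYLPF (fast). They were chosen by name, from 7790 genes named on the array through the RefSeq accession that the array files give for each probe. Of the 10 genes, 9 were matched to a probe, each to 1 probe printed in 2 spots, and all 9 were among the 17622 of 21475 probes bright enough to be tested. MYLPF was not matched to a probe and was not analysed here.

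Transcript levels were measured on 8 two-colour arrays, each of which carried RNA from cells of a beef bull beside RNA from cells of a dairy bull. In the comparison of Limousin (LIM) with Holstein-Friesian (HF) bulls, 4 arrays carried LIM in Cy5 against HF in Cy3. In the comparison of Hereford (HER) with HF bulls, 4 arrays carried HER in Cy3 against HF in Cy5. All cells were primary cultures from the semitendinosus muscle of 15-month-old bulls, 4 bulls a breed, collected in the proliferative phase at 80% confluence. The cultures had been enriched for myoblasts by preplating and were not pure, so fewer muscle cells and less of a transcript in each muscle cell cannot be told apart. The arrays of each comparison shared a slide, so the effect of breed cannot be told apart from that of slide or dye in either comparison alone, whereas the dyes were reversed from one to the other. The 8 HF channels came from 4 HF bulls, so bulls were shared between the comparisons. Whether the same HF culture was used on both slides is not stated. The HF channels of arrays with the same number deviated together (Pearson correlation 0.619 to 0.817 over 17620 probes, against -0.383 to 0.0165 for other numbers). The 8 arrays are therefore not taken as independent, and p-values that pool them are too small.

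The share of probes that stood well above background ran from 68.8% to 85.2% over the channels, and no spot was saturated. HER replicate 3 stood apart. It had the lowest share of beef-channel probes above background, and local backgrounds of up to 775167 units against a median of 37 in red. The HER means of MYH3, MYL2, and MYL6 are therefore also given without it. Of the cells' defining markers, MYF5, CDH15, and DES, genes of satellite cells and myoblasts, were well above background on all 16 channels, whereas PAX7 was not matched to a probe.

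Below, a ratio is the log2 of the beef breed over HF on an array, with its SD over 4 arrays, and brightness is the processed signal of a channel in arbitrary units. A gene was called higher or lower at a Benjamini-Hochberg adjusted p of at most 0.05 (limma, over all tested probes) and a fold change of at least 1.3. Of the 9 myosin genes, 8 were measured above background in beef and HF channels, whereas MYH2 was so in beef channels alone and its ratio is described without a test. Of the 8, 6 were called higher in LIM than in HF, where 16.1% of all tested probes were called higher, and 6 were called higher in HER than in HF, where 10.4% were. Averaged over both beef breeds, 6 of the 8 were called higher, where 17.7% of tested probes were. None of the 8 was called lower in either comparison, where 18.3% and 14% of tested probes were. The genes called higher in LIM were MYH3, MYL4, MYL1, MYL2, MYL6, and MYL6B, and those called in HER, which was also set against HF, were these too. The slow heavy chain MYH7 and the slow alkali chain MYL3 were called in neither. With normexp background correction on local backgrounds as measured, 0 of the 8 were called in HER (limma), where 0 of all tested probes were, and the HER ratios of the 6 genes lay between 0.12 (MYL6) and 2.39 (MYH3). The median ratio of the 8 genes was 1.82 in LIM and 1.5 in HER, against medians of -0.01 and -0.06 over all tested probes.

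**Figure D1:**
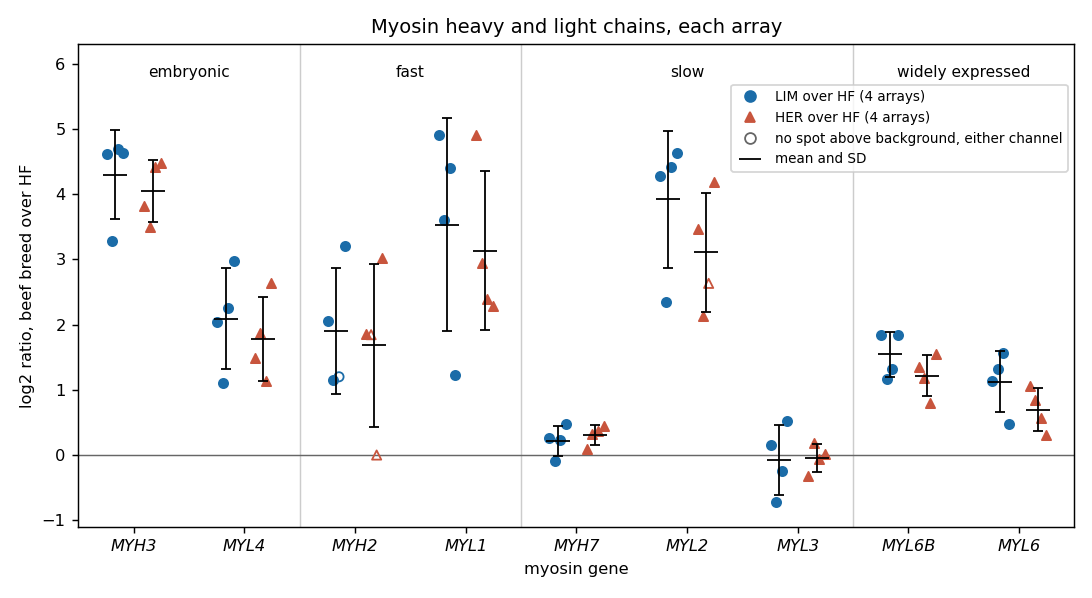
Log2 ratio of beef breed over HF (vertical axis) for 9 myosin genes (horizontal axis) on each array, grouped by isoform class, for LIM (circles) and HER (triangles), with mean and SD over 4 arrays; open symbols mark arrays where no spot of the probe was above background in either channel. MYH3, MYL1, and MYL2 had mean ratios above 3 in both breeds, whereas MYH7 and MYL3 lay near 0 in both.

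MYH3 is the embryonic myosin heavy chain, which muscle makes in development and again in regeneration. Its ratio had the largest mean of the 9 genes in both comparisons. On the LIM arrays the MYH3 brightness was 13086, 6742, 7339, and 15594 in the LIM channel, replicates 1 to 4, and 537, 697, 284, and 633 in the HF channel. On the HER arrays it was 5511, 8025, 1041, and 9149.8 in the HER channel and 391, 711, 48.6, and 413 in the HF channel. Both channels of HER replicate 3 were several-fold dimmer than those of the other HER arrays, and the lowest beef channel of all 8 arrays was still brighter than the brightest HF channel. The MYH3 ratios were 4.61, 3.27, 4.69, and 4.62 on the LIM arrays and 3.82, 3.50, 4.42, and 4.47 on the HER arrays. LIM replicate 2 was the lowest, and the other 3 LIM arrays lay within a narrow range. The mean was 4.30 ± 0.68 (SD, n = 4) for LIM, a fold of 19.7 (limma adjusted p = 0.000337), and 4.05 ± 0.47 (SD, n = 4) for HER, a fold of 16.6 (limma adjusted p = 0.000653). The MYH3 mean was 4.64 without LIM replicate 2 and 3.93 without HER replicate 3, and both calls held. The 2 spots of the MYH3 probe differed by at most 0.10 in log2 ratio on any array.

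MYL4 encodes the embryonic alkali light chain, which the adult heart keeps in its atria. It rose in both breeds. The MYL4 ratios were 2.04, 1.10, 2.25, and 2.97 on the LIM arrays and 1.48, 1.87, 1.13, and 2.63 on the HER arrays. Replicate 4 was the highest on both slides, and all 8 arrays were above 1. The mean was 2.09 ± 0.77 (SD, n = 4) for LIM, a fold of 4.26 (limma adjusted p = 0.00186), and 1.78 ± 0.65 (SD, n = 4) for HER, a fold of 3.43 (limma adjusted p = 0.00759). MYL4 brightness ran from 131 to 1089 in the beef channels and from 59.9 to 195 in the HF channels, so the groups overlapped, through the dim HER replicate 3.

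MYL1 encodes the alkali light chains of fast fibers. The MYL1 ratios were 4.90, 3.60, 4.40, and 1.23 on the LIM arrays and 4.90, 2.94, 2.39, and 2.28 on the HER arrays. Replicate 4 was the lowest on both slides. In the HF channel, MYL1 brightness was 124, 286, 113, and 1374 on the LIM arrays and 72.6, 176, 56.6, and 826 on the HER arrays, so HF replicate 4 was by far the brightest HF channel on each slide. In the beef channels it ran from 2378 to 3694 on the LIM arrays and from 297 to 4023 on the HER arrays. The mean was 3.53 ± 1.63 (SD, n = 4) for LIM, a fold of 11.6 (limma adjusted p = 0.00343), and 3.13 ± 1.22 (SD, n = 4) for HER, a fold of 8.76 (limma adjusted p = 0.0107). Without replicate 4 the LIM mean was 4.30, and without replicate 1 the HER mean was 2.54, and both calls held.

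MYH2, the heavy chain of fast oxidative fibers, was close to the detection limit. Its brightness was 35.9, 19.2, 16.2, and 44.9 in the LIM channel and 23.3, 22.1, 8.16, and 27.0 in the HER channel. The beef channel was well above background on 3 of 4 LIM arrays and 2 of 4 HER arrays, and the HF channel, at 3.33 to 8.66, on none of the 8. The HF level therefore has only an upper bound. On the processed signals, with the mean over all 4 beef channels set against the dimmest signal well above background on an array where HF was dimmer, MYH2 was at least 2.12-fold higher in LIM and at least 1.96-fold higher in HER. These bounds do not hold without background correction, where the mean log2 ratios were 0.35 and 0.46. The ratios as the scanner software gave them were 2.05, 1.15, 1.20, and 3.21 on the LIM arrays and 1.86, 1.84, 0.00, and 3.02 on the HER arrays. Their means were 1.90 ± 0.96 for LIM and 1.68 ± 1.25 for HER (SD, n = 4). No p-value is given, since MYH2 met the filter on dim probes through the beef channels alone and its HF values are partly substitutes. With normexp background correction the means were 0.22 and 0.31 with aberrant local backgrounds replaced by the array's median, and 0.13 and 0.19 with backgrounds as measured. The fast heavy chain MYH1, which was not tested, lay between 2.71 and 43.5 units in the beef channels and between 3.12 and 28.2 in the HF channels. Both upper ends were from HER replicate 3, and the highest values on the other arrays were 6.57 and 9.31.

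MYL2 encodes the regulatory light chain of slow fibers and of the heart's ventricles. It was the slow member that rose. MYL2 brightness was 3862, 2897, 2891, and 4597 in the LIM channel against 199, 568, 136, and 186 in the HF channel of the same arrays. On the HER slide, it was 1897, 2061, 30.2, and 4706 in the HER channel against 172, 469, 4.87, and 258 in the HF channel. On HER replicate 3 neither channel was well above background. The MYL2 ratios were 4.28, 2.35, 4.41, and 4.62 on the LIM arrays and 3.47, 2.14, 2.63, and 4.19 on the HER arrays, with replicate 2 the lowest on both slides. The mean was 3.92 ± 1.05 (SD, n = 4) for LIM, a fold of 15.1 (limma adjusted p = 0.00079), and 3.11 ± 0.91 (SD, n = 4) for HER, a fold of 8.60 (limma adjusted p = 0.0039). Without HER replicate 3, the HER mean was 3.26, and the call held.

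MYH7, the heavy chain of slow fibers and of the ventricles, was measured well above background on all 16 channels and differed by less than the fold asked for a call. The MYH7 ratios were 0.26, -0.09, 0.23, and 0.47 on the LIM arrays and 0.09, 0.32, 0.36, and 0.45 on the HER arrays. It was higher in the beef breed on 7 of 8 arrays, by little. The mean was 0.22 ± 0.23 (SD, n = 4; limma adjusted p = 0.181) for LIM, with a 95% confidence interval of -0.05 to 0.49, and 0.31 ± 0.15 (SD, n = 4; limma adjusted p = 0.0917) for HER, with an interval of 0.03 to 0.58. Averaged over both beef breeds, MYH7 had a limma adjusted p of 0.032 at a fold of 1.20, under the fold of 1.3 asked for a call. That p pools 8 arrays that are not taken as independent. With same-numbered arrays averaged to 4 units, the limma adjusted p of MYH7 was 0.0918. Its brightness ran from 576 to 1172 in the beef channels and from 422 to 979 in the HF channels.

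MYL3, the alkali light chain of slow fibers and of the ventricles, showed no difference beyond the spread between arrays. The MYL3 ratios were 0.16, -0.72, -0.24, and 0.52 on the LIM arrays and -0.32, 0.19, -0.06, and 0.01 on the HER arrays. The mean was -0.07 ± 0.53 (SD, n = 4; limma adjusted p = 0.795) for LIM, with a 95% confidence interval of -0.51 to 0.37, and -0.05 ± 0.21 (SD, n = 4; limma adjusted p = 0.878) for HER, with an interval of -0.48 to 0.39. Like MYH7, it was well above background on all 16 channels, at 94.5 to 274 units, so a lack of signal did not limit these values.

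**Figure D2:**
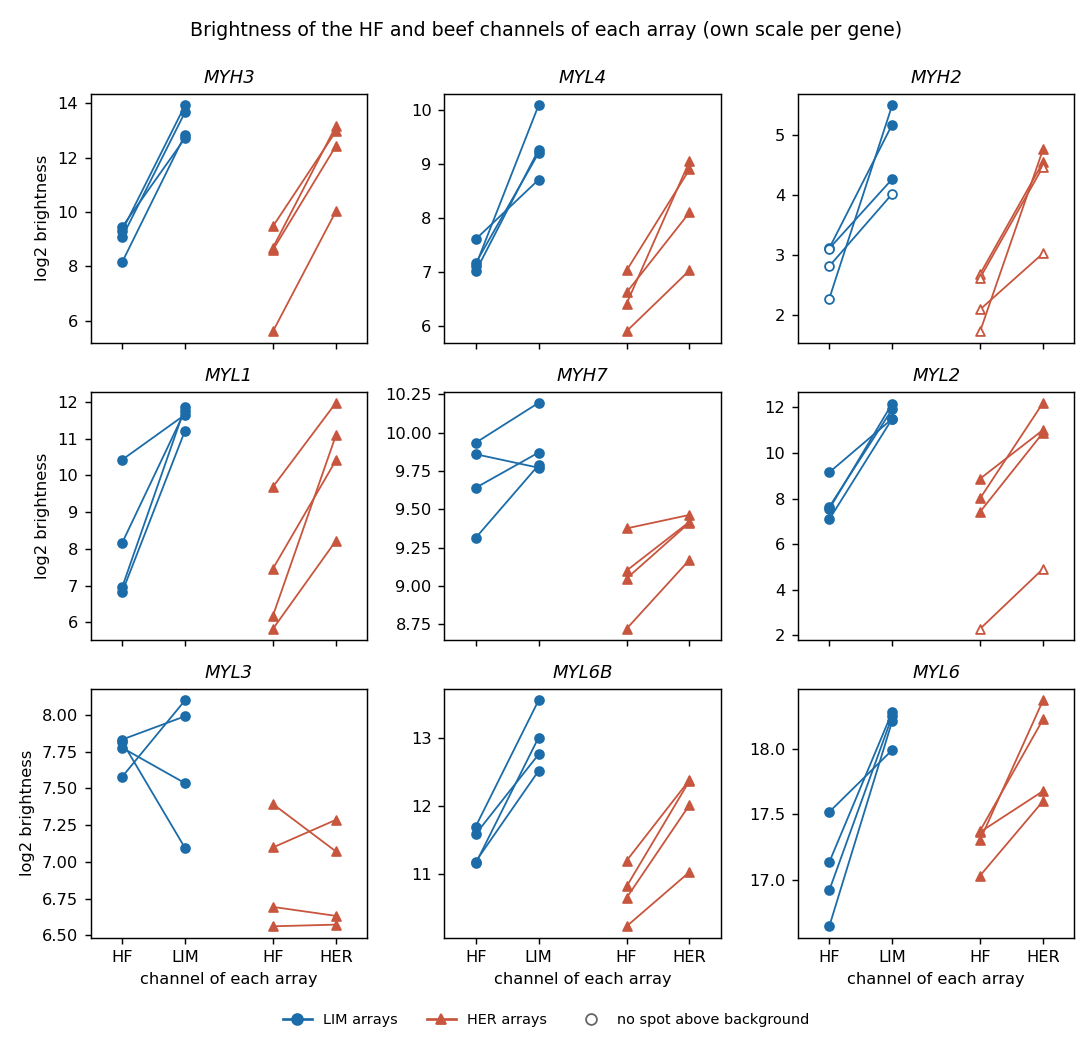
Brightness (log2 of the processed signal, vertical axis, scaled for each gene) in the HF and beef channels of each of the 8 arrays, with a line joining the channels of an array; open symbols mark channels where no spot was above background. MYH3 and MYL2 were brighter in the beef channel on all 8 arrays, MYL3 on 4 of 8, and the HF channel of MYH2 was never above background.

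MYL6 and MYL6B are alkali light chains found also outside muscle, MYL6 in smooth muscle and non-muscle cells, and MYL6B in slow skeletal muscle and non-muscle cells. Both were higher in the beef breeds on 8 of 8 arrays, as were 11.7% of all tested probes. The MYL6B ratios were 1.84, 1.16, 1.32, and 1.84 on the LIM arrays and 1.36, 1.18, 0.79, and 1.54 on the HER arrays. The MYL6B mean was 1.54 ± 0.35 (SD, n = 4) for LIM, a fold of 2.91 (limma adjusted p = 0.000768), and 1.22 ± 0.32 (SD, n = 4) for HER, a fold of 2.33 (limma adjusted p = 0.00387). Its spread between arrays was small beside its size. The MYL6 ratios were 1.14, 1.32, 1.56, and 0.47 on the LIM arrays and 1.06, 0.84, 0.57, and 0.31 on the HER arrays, with replicate 4 the lowest on both slides. The MYL6 mean was 1.12 ± 0.47 (SD, n = 4) for LIM, a fold of 2.18 (limma adjusted p = 0.00312), and 0.70 ± 0.33 (SD, n = 4) for HER, a fold of 1.62 (limma adjusted p = 0.0314). The HER call of MYL6 was lost without HER replicate 1, 2, or 3, where the mean was 0.57, 0.65, and 0.74. In the current bovine annotation (ARS-UCD2.0), MYL6 and MYL6B are neighbouring genes, as are MYH2 and MYH3. The array was annotated on another assembly, and no positions are given.

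LIM and HER were compared with each other through the difference of their ratios to HF. Of the 8 myosin genes measured in beef and HF channels, 0 were called different (limma), and 0 had an unadjusted p of at most 0.05. Of all tested probes, 0.233%, 41 in number, were called, and 14.1% passed that unadjusted p with a fold of at least 1.3. The ratio of each of the 6 called genes was higher for LIM, by 0.25 (MYH3) to 0.81 (MYL2). For MYL2 the 95% confidence interval of the difference ran from -0.56 to 2.18 (limma adjusted p = 0.581), for MYH3 from -0.60 to 1.10 (limma adjusted p = 0.812), and for MYL6 from -0.19 to 1.04 (limma adjusted p = 0.512). These intervals hold differences of over 1 log2 unit. The levels of the 6 called genes were thus higher in LIM and in HER than in HF, and no difference between LIM and HER was called. The comparisons share HF as reference, and the dyes of the beef breeds were opposite.

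The isoforms were then compared with each other on the same array, as the ratio of one myosin minus that of another, in 7 pairs. With 4 arrays the smallest exact p is 0.125, and with all 8 arrays pooled it is 0.00781. The 8 arrays are not taken as independent, so the pooled p-values below are too small and the differences are read as descriptions. The embryonic heavy chain exceeded the slow one on 8 of 8 arrays, MYH3 minus MYH7 being 3.91 ± 0.46 (SD, n = 8; two-sided exact permutation test, p = 0.00781, adjusted p = 0.0137 over 7 pairs). The range was 3.18 to 4.46, and the LIM mean of 4.08 and the HER mean of 3.75 lay close together. For the pairs with MYH2, whose HF channel was above background on none of the 8 arrays, the differences are descriptions without a test. MYH3 minus MYH2 was 2.38 ± 1.07 (SD, n = 8), from 1.41 to 4.42, on the ratios as given. MYH7 minus MYH2 was -1.53 ± 0.97 (SD, n = 8), and 0.00 with normexp background correction and aberrant backgrounds replaced.

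Among the alkali light chains, the embryonic and the fast form both stood above the slow one. MYL4 minus MYL3 was 1.99 ± 0.49 (SD, n = 8; exact permutation test, adjusted p = 0.0137), from 1.19 to 2.62 over the 8 arrays. MYL1 minus MYL3 was 3.39 ± 1.57 (SD, n = 8; exact permutation test, adjusted p = 0.0137), from 0.71 on LIM replicate 4 to 5.22 on HER replicate 1. MYL4 and MYL1 did not differ beyond the spread between arrays, MYL4 minus MYL1 being -1.40 ± 1.73 (SD, n = 8; exact permutation test, adjusted p = 0.0625), with MYL1 above MYL4 on 6 of 8 arrays. The exceptions were LIM replicate 4, at 1.74, and HER replicate 4, at 0.35, the arrays with the bright MYL1 signal in HF. MYL6B minus MYL6 was 0.47 ± 0.59 (SD, n = 8; exact permutation test, adjusted p = 0.0625), above 0 on 6 of 8 arrays. With same-numbered arrays averaged to 4 units, no pair can fall below an exact p of 0.125, and MYH3 minus MYH7 remained 3.91 ± 0.44 (SD, n = 4), above 0 in 4 of 4 units.

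**Figure D3:**
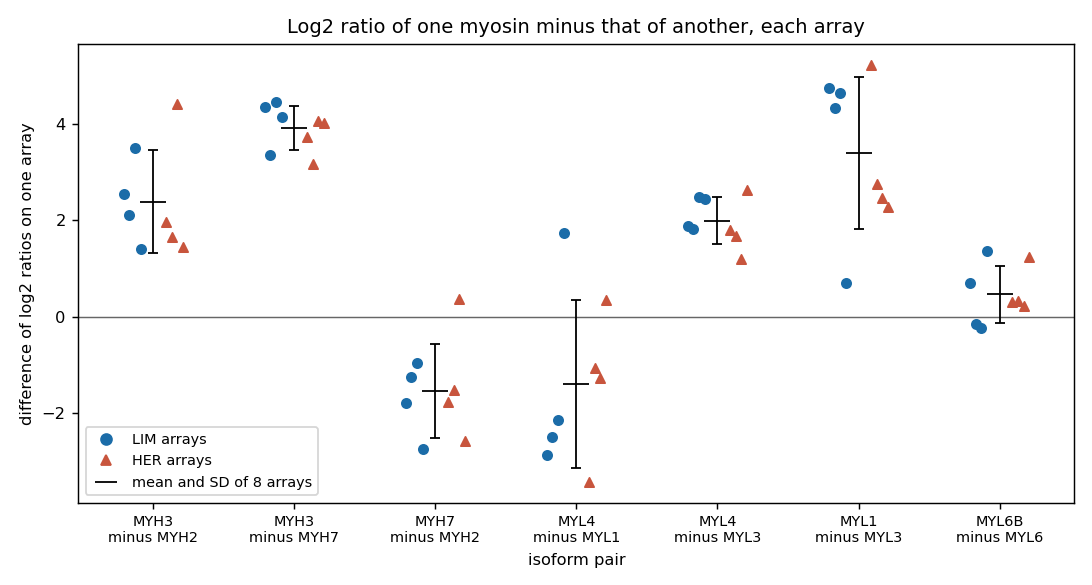
Log2 ratio of one myosin minus that of another on the same array (vertical axis) for 7 isoform pairs (horizontal axis), on LIM (circles) and HER (triangles) arrays, with mean and SD of 8 arrays. MYH3 minus MYH7 and MYL4 minus MYL3 lay above 0 on all 8 arrays, whereas MYL4 minus MYL1 spread from -3.42 to 1.74.

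Over the 8 arrays, the ratios of the myosin genes did not run in parallel. The Pearson correlation of the ratio with that of MYH3 was 0.828 for MYL2, 0.673 for MYH7, 0.614 for MYL4, 0.544 for MYL3, 0.444 for MYL6B, 0.216 for MYH2, -0.148 for MYL1, and -0.234 for MYL6. Among 6798 other named genes, the 5 most like MYH3 were TIMM21 (0.954), ACTA1 (0.933), MGC157368 (0.93), GRIK5 (0.918), and NMRK2 (0.917). Of these, ACTA1, the skeletal muscle actin, had ratios of 2.06 to 6.40, and NMRK2, a kinase of NAD synthesis found in muscle, of 2.60 to 5.39. TIMM21, a mitochondrial import protein, had ratios of -0.56 to -0.15. These are descriptions over 8 arrays that share slides and HF bulls and may share HF cultures. The low MYH3 ratios of replicate 2 on both slides weigh on them.

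Genes that build the thick filament or regulate myosin were read from a list of 40, of which 19 were matched to a probe and 16 were tested. In LIM, 6 were called higher and 1 lower, and in HER, 7 higher and 1 lower, beside 16.1% and 18.3% of all tested probes in LIM and 10.4% and 14% in HER. UNC45B, TTN, and MYBPH, counted among the higher ones, met the filter on dim probes through the beef channels. For them the HF channel was above background on 0, 1, and 1 of 8 arrays, and the beef channel on 7, 6, and 4. Their calls are descriptions. The counts of called genes were unstable, from 3 to 8 in LIM and from 2 to 9 in HER when 1 array was left out, the lowest being without LIM replicate 3 and without HER replicate 1 or 2. With normexp on backgrounds as measured, 3 were called in LIM and 0 in HER (limma). Those called in both comparisons were UNC45B, TTN, MYLK, and MYL9, called higher, and MYBPHL, called lower. UNC45B, the chaperone that folds striated muscle myosin, was not above background in the HF channel of any array. On the processed signals it was at least 12.2-fold higher in LIM and at least 6.11-fold higher in HER. In HER, 3 of 4 beef channels were above background, and no p-value is given. These bounds do not hold without background correction, where the mean log2 ratios were 1.46 and 1.03. With normexp on backgrounds as measured they were 0.83 and 0.40. UNC45B brightness was 156, 172, 109, and 189 in LIM and 63.4, 104, 17.5, and 80.1 in HER, against 3.40 to 8.42 in HF. TTN (titin) is the giant spring that spans the sarcomere and holds the thick filament. On the processed signals it was at least 3.39-fold higher in LIM, where HF was above background on 0 of 4 arrays. Without background correction its mean log2 ratio in LIM was 0.67, under that bound. In HER it had a mean ratio of 2.07 ± 1.04 (SD, n = 4). There the beef channel was above background on 2 arrays and HF on 1, so no p-value is given. Its LIM ratios were 4.40, 2.33, 2.90, and 0.14, with a mean of 2.44, or 3.21 without replicate 4. The LIM call was lost without LIM replicate 1, 2, or 3, the HER call without any one of the HER arrays or LIM replicate 2 or 3, and both with normexp.

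MYLK, the kinase of the smooth muscle and non-muscle regulatory light chain, had a mean ratio of 1.84 ± 1.41 in LIM and 2.09 ± 0.51 in HER (SD, n = 4; limma adjusted p = 0.0153 in both), and was -0.03 on LIM replicate 4, without which the LIM mean was 2.46. The LIM call was lost without LIM replicate 2 or 3, where the mean was 1.71 and 1.33, and the HER call without HER replicate 1 or 2. MYL9, a regulatory light chain of smooth muscle and non-muscle cells, had means of 1.07 ± 0.58 and 1.12 ± 0.39 (SD, n = 4; limma adjusted p = 0.00803 and 0.0118), and its HER call was lost without HER replicate 1 or 2. MYBPHL, a relative of myosin-binding protein H, was called lower in both, with means of -0.52 ± 0.14 and -0.43 ± 0.15 (SD, n = 4; limma adjusted p = 0.00656 and 0.0216). It was lower on 8 of 8 arrays, as were 17% of all tested probes. Neither call held with normexp or without background correction, where the means lay between -0.26 and -0.04, and the HER call was also lost with median centring, at -0.37, and without HER replicate 2 or 3. MYH9, the most common non-muscle heavy chain, had means of 0.02 ± 0.37 and 0.02 ± 0.11 (SD, n = 4; limma adjusted p = 0.916 and 0.937). The smooth muscle heavy chain MYH11 and the non-muscle heavy chain MYH10 were called higher in HER, at 1.96 ± 1.19 and 1.25 ± 0.29, and not in LIM, at 1.16 ± 0.63 and 0.44 ± 0.72 (SD, n = 4), and neither difference between the breeds was called. The other genes called once were MYBPC3 and MYBPH in LIM and TRIM54 in HER. On the LIM arrays, MYBPH was above background in the beef channel alone.

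**Figure D4:**
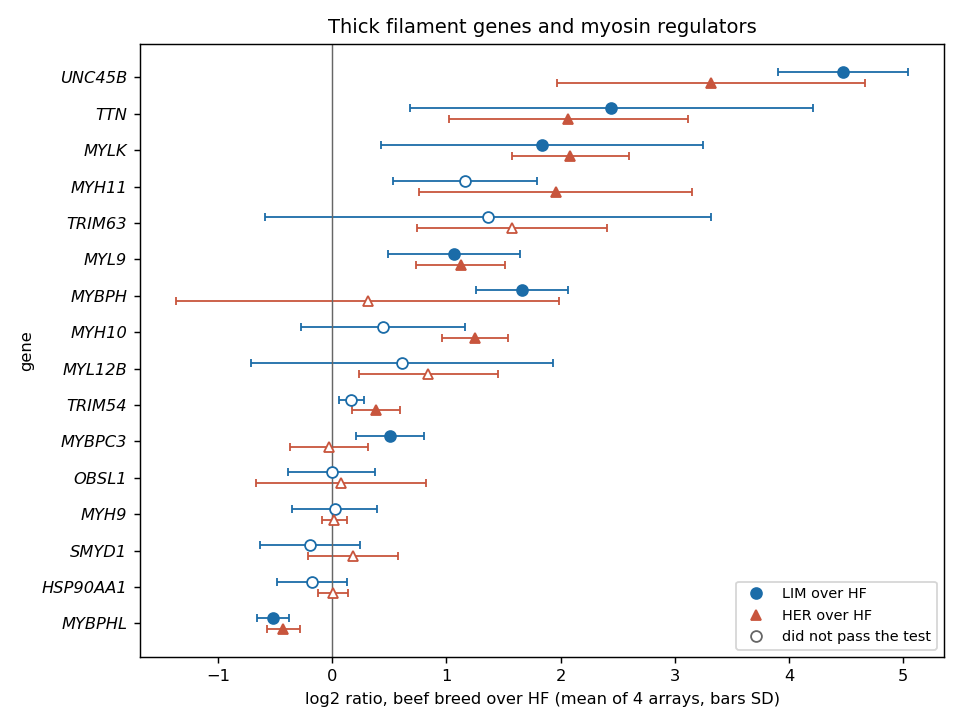
Log2 ratio of beef breed over HF (horizontal axis, mean and SD of 4 arrays) for 16 genes of the thick filament and of myosin regulation (vertical axis), in LIM (circles) and HER (triangles); open symbols did not pass the test. UNC45B, TTN, MYLK, and MYL9 were called higher in both breeds, and MYBPHL lower, on the ratios as the scanner software gave them. UNC45B, TTN, and MYBPH met the filter on dim probes through the beef channels.

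Genes of some marker lists of other cells and states were called higher in the beef breeds beside the myosin genes, and those of others were not. Of all tested probes, 16.1% were called higher and 18.3% lower in LIM, and 10.4% and 14% in HER. The counts in the lists were not tested against these shares. Of 10 tested genes of differentiating muscle cells other than myosins (of 16 listed), 10 were called higher in LIM and 10 in HER, with median ratios of 3.50 and 2.77. They include MYOG, the transcription factor of early differentiation, at 2.04 ± 0.51 and 2.07 ± 0.40, and the actin ACTC1 at 3.63 ± 0.54 and 3.03 ± 0.46 (SD, n = 4). The summed brightness of that list, over its 11 genes with a probe, was 52164 to 123600 in LIM, 18153 to 104790 in HER, and 3129 to 12754 in HF. CKM, the creatine kinase of mature muscle, was too dim to be tested. It was not above background in HF, and its brightness was 12.5 to 38.8 in LIM and 5.83 to 7.65 in HER. Of 7 tested markers of satellite cells and myoblasts, 5 were called higher in each comparison. PAX7 and PAX3 were not matched to a probe.

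Of 9 tested fibroblast markers, 5 were called higher and 2 lower in each comparison, with median ratios of 1.32 and 1.36. Of all tested probes, 16.1% were called higher and 18.3% lower in LIM, and 10.4% and 14% in HER. COL1A1, a collagen, was at 2.13 ± 1.06 and 2.30 ± 0.83, and PDGFRA, a receptor of fibroblast precursors, at -1.48 ± 0.44 and -1.36 ± 0.47 (SD, n = 4). The summed fibroblast brightness was 367180 to 794480 in LIM, 283620 to 551010 in HER, and 61932 to 235690 in HF, and all 9 genes were well above background on all 16 channels. Of 5 tested markers of smooth muscle cells and pericytes, 1 was called higher in LIM, near the share of all probes, and 3 in HER. The sum of that list was 215560 to 446240 in LIM, 273190 to 468040 in HER, and 101440 to 273480 in HF, where RGS5 was not above background. The part of these cells in the myosin results, MYL6 and MYL6B in particular, was not tested.

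Of 6 tested adipocyte markers, 1 was called higher and 2 lower in LIM, and 1 higher and 1 lower in HER. Of all tested probes, 16.1% were called higher and 18.3% lower in LIM, and 10.4% and 14% in HER. In lists this short, a count of 1 is not read as a result. The summed adipocyte brightness was 17991 to 63670 in LIM, 38336 to 51514 in HER, and 55014 to 149800 in HF. Of 5 tested endothelial markers, 0 were called higher and 0 and 1 lower in LIM and HER (limma), and at an unadjusted p of at most 0.05 with the same fold the counts were the same. Their sum was 592 to 8949 in LIM, 237 to 5909 in HER, and 535 to 2452 in HF. PECAM1, VWF, and CDH5 were not matched to a probe. Of 3 tested macrophage and leukocyte markers, 1 was called higher in each comparison, and ITGAM was not above background in any channel. The summed brightness of that list, over its 5 genes with a probe, was 356 to 819 in LIM, 164 to 367 in HER, and 189 to 570 in HF. Of 3 tested genes of dividing cells, 0 were called in either comparison (limma), and 0 in LIM and 1 in HER, as lower, passed an unadjusted p of at most 0.05 with the same fold. Averaged over both beef breeds, BUB1, a kinase of the mitotic checkpoint, was called lower, at -0.65 (limma adjusted p = 0.0245).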

How the data were processed

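The authors deposited the output of Feature Extraction 10.7.3.1 for 8 arrays: log10 ratios of red over green and intensity values, processed (background-subtracted and dye-normalized) and median. A series table deposited by the authors holds the same log10 ratios. The ratios were turned to log2 beef over HF, leaving out control and outlier spots and averaging spots of a probe. Ratios near 0 signal rest on substitute values set by the scanner software.

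A probe was tested where 4 or more of the 16 channels stood well above background (17622 of 21475 probes), with a mean for each comparison, in limma 3.58.1 (R 4.3.3), after tests on simulated data. The unadjusted p of at most 0.05 with a fold change of at least 1.3 are the thresholds of the methods. Isoform pairs used exact two-sided sign-flip permutation, adjusted over 7 pairs. Gene names came from RefSeq accessions through a table on ARS-UCD2.0 (7793 of 20693 matched), and TTN and UNC45B through the study's gene table. All genes of the family with a probe are named, as are listed regulators called in both comparisons. Where a regulator had several probes, the brightest was used. The floor for "at least" folds is the dimmest signal well above background on each array, after Aquantile scaling, and is open to dye bias. Members, lists, and tests were chosen with earlier results of these data known. Alternatives covered background correction, scaling, filters, thresholds, test, array weights, replicate block, and left-out arrays. The methods give 4 bulls a breed and do not say which bull each array carried, and this number limits precision.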

Additional observations from a re-analysis of the deposited data

Results flagged for a closer look

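In 3 of 54 groups of 4 arrays, 1 array stood apart from the other 3 by more than the spread of those (Dixon's test, which chance passes in about 1 of 20 groups). The MYH3 log2 ratio of LIM replicate 2 was 3.274, against 4.608 to 4.693 on the other LIM arrays. The MYL2 log2 ratio of the same array was 2.351, against 4.282 to 4.624. The log2 brightness of MYH2 in the HER channel of replicate 3 was 3.029, against 4.468 to 4.755, where no spot was above background.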

How the results depend on the processing

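Precision was limited by 4 arrays a comparison and, for MYH2, by a signal near background. With MYH2 counted, 7 of the 9 myosin genes met the thresholds in each comparison with HF; with normexp and local backgrounds as measured, 0 were called in HER, where 0 of all probes were, and with the methods' t-test after Benjamini-Hochberg adjustment, 1 in LIM and 0 in HER, where 2 of all probes were (at the methods' thresholds, 7 and 6). The cause was not tested. Where MYH2 passed the filter, the counts here include it, though its HF channel was never above background. Its part in them is a description and not a test result. Leaving out 1 array gave 6 to 7 called in LIM, 5 to 7 in HER, 7 to 7 for their mean, and 0 to 0 between the breeds. MYH2 met the thresholds in 7 of these 8 runs in LIM and in 5 in HER. Requiring all channels above background gave 5 in each, since it removes MYH2 and MYL2. MYH7 minus MYH2 was -0.000274 with normexp and marked backgrounds replaced, and 0.017 with backgrounds as measured, where the offset of 50 exceeds the MYH2 brightness; leaving out 1 array gave -1.80 to -1.36. MYL6B minus MYL6 ranged from 0.34 to 0.57 and reached an adjusted p under 0.05 (exact permutation test) without LIM replicate 3. MYL4 minus MYL1 ranged from -1.84 to -1.11 and passed without LIM replicate 4. Both p-values pool arrays that are not taken as independent. No mean ratio of a myosin gene that was called changed sign under any alternative run. On a single array, HER replicate 3, the MYL6 ratio went from 0.57 to -1.44 with normexp and backgrounds as measured. Gene-wise means over several probes changed nothing, as each gene has 1 probe. Over all probes, calls in HER numbered 4302, and 1576, 1527, and 2667 without HER replicate 1, 2, or 3, and calls in LIM 6056, and 3796 without LIM replicate 3. Calls between LIM and HER numbered 41, and 1 to 14 when any 1 array was left out. The deviations of same-numbered arrays correlated at -0.236 to 0.54 in ratio, so the numbers were not taken as pairs; with the replicate block, 7 myosin genes were called in each comparison and in their mean, and 0 between the breeds. Averaging same-numbered arrays to 4 units, and leaving out ratios with neither channel above background, were chosen after seeing the data and left 7 called.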
